A study of Rattus norvegicus with 12 samples.

Results

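The 9 genes described here encode tissue factor, its inhibitors, an anticoagulant receptor and the local plasminogen system: F3, Tfpi, Tfpi2, Thbd, Plat, Plau, Plaur, Serpinb2 and Serpine2. They were measured in TRL1215, a rat liver epithelial cell line. A gene was taken where exactly 1 symbol of the platform's annotation matched its name, and its row was to be chosen by the highest mean over the 12 arrays. Each of the 9 genes had 1 such row, so that step decided nothing, and the 9 are part of 22093 genes measured. The names themselves were picked on earlier results of these same arrays, in which F3 was already among the large rises at 100 µM. The difference of F3 at 100 µM is therefore given as a description, with no test. The other p-values rank a difference against the spread between arrays and are no independent support.

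The study compared 4 groups of 3 arrays. All cells were passaged weekly in William's E medium with 10% serum. Control cells were passage-matched and had no added compound. T10, T50 and T100 cells were kept in perfluorooctanoic acid (PFOA, a persistent fluorinated surfactant) at 10, 50 or 100 µM; the sample names give 38 weeks, and the protocol gives that time as an upper limit. Values were log2 array values, 1 per probe set and array. The labels do not say whether the arrays of a group came from separate long-term cultures, so the p-values measure only the spread between these arrays. Cells of 1 line were studied, and the labels do not say how many lineages were exposed. As these are bulk samples, fewer cells expressing a gene and less RNA per cell cannot be told apart.

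Tissue factor is the cell-surface receptor for coagulation factor VIIa and starts the extrinsic clotting cascade, and it also signals through protease-activated receptors. Tissue factor pathway inhibitor shuts off that complex, while thrombomodulin turns thrombin into an activator of protein C. Plasminogen is made mainly by hepatocytes and is cut to plasmin by tissue-type or urokinase-type plasminogen activator. Urokinase is held at the cell surface by its receptor, and serpins trap both activators. In many tumour cells tissue factor and the urokinase system are studied for their part in invasion.

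Background was set by 1153 negative-control probe sets, as the mean over a group's arrays of their 95th percentile. This level was lowest in control (5.42), followed by T50 (5.52), T100 (5.65) and T10 (5.77), and the group means of 4581 genes (20.7%) exceeded it at least once. The 95th percentile over all genes, a measure of how far the values spread, was lowest in T10 (9.42), 9.57 in both control and T50, and highest in T100 (9.66). Of 8 markers listed for this epithelial line, only the keratin gene Krt8 and Vim, better known as a mesenchymal marker, were above background, each with 1 identical value on all 12 arrays. The epithelial markers Krt7, Krt18, Krt19, Cdh1 and Epcam were below it. Among the 8 listed markers, the label epithelial therefore rests on Krt8 alone. None of 9 hepatocyte markers and none of 4 platelet markers was above background in any group. Among 10 endothelial markers only Tek was, with Pecam1 and Cdh5 at negative-control levels, and among 10 macrophage and leukocyte markers only Cd14 was.

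In all 4 groups, 5 of the 9 genes were above background: F3, Tfpi, Plat, Plaur and Serpinb2. The other 4 (Tfpi2, Thbd, Plau and Serpine2) were below it on all 12 arrays. F3 was highest at 100 µM, Serpinb2 was lowest at 10 µM, and Tfpi was modestly higher at 100 µM. For Plat and Plaur no pair of groups passed the test. No value of the 9 genes reached the ceiling of the table (19.93).

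**Figure D1:**
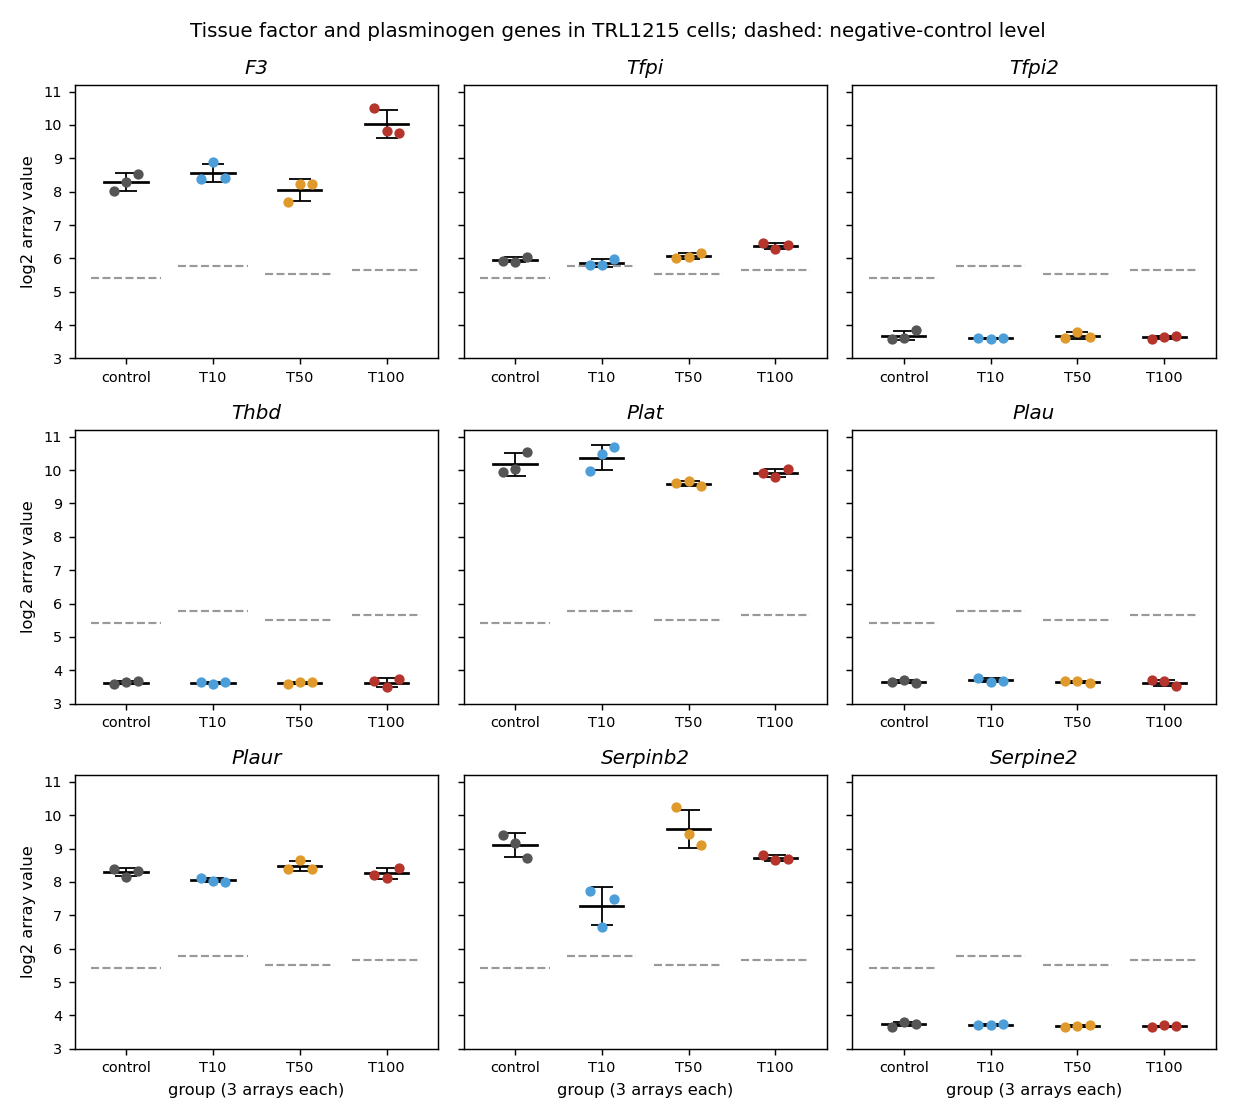
Log2 array values of the 9 genes in control, T10, T50 and T100 cells (points, 3 arrays a group), with the mean and SD (black) and the negative-control level (dashed). F3 lay at 9.76 to 10.50 in T100 and at or below 8.88 elsewhere, Serpinb2 at 6.65 to 7.74 in T10 and at or above 8.65 elsewhere, and 4 genes lay below the dashed line in each group.

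F3 encodes tissue factor. Its values were 8.01, 8.30 and 8.54 in control, 8.38, 8.88 and 8.42 in T10, and 7.68, 8.23 and 8.24 in T50. In T100 they were 10.50, 9.83 and 9.76. All 3 T100 arrays lay above the other 9, while the control arrays overlapped with both lower doses. The means ran from T50 (8.05 ± 0.32, SD, n = 3) through control (8.28 ± 0.27) and T10 (8.56 ± 0.28) to T100 (10.03 ± 0.41). T100 exceeded control by 1.75 log2 units (3.36-fold), T10 by 1.47 and T50 by 1.98.

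Below 100 µM, F3 gave no difference past the threshold in limma's test. T10 differed from control by 0.28 ± 0.24 (SE, with a 95% interval of -0.26 to 0.82, adjusted p = 0.689). T50 differed by -0.23 ± 0.24 (-0.77 to 0.30, adjusted p = 0.816). T50 minus T10 was -0.51 ± 0.24, with no overlap of their arrays (adjusted p = 0.371).

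Markers of stellate cells and fibroblasts moved beside F3 at 100 µM. Of 10 markers, 4 were above background (Col1a1, Col1a2, Col3a1 and Acta2; limma called Col1a1 and Acta2 higher than in control), and the log2 values of all 10 summed to 66.1 to 70.3 in T100, against 60.4 to 61.9 in control, 57.6 to 61.3 in T10 and 58.2 to 61.2 in T50. Pdgfrb, Des, Dcn, Lum, Thy1 and Lrat were below background in every group. Their part in the F3 result was not tested. The 95th percentile over all genes was also highest in T100 (9.66). Over all alternatives, which include that percentile as a covariate, T100 minus control lay between 1.51 and 1.88 for F3. T100 minus T10 lay between 1.22 and 1.63, and T100 minus T50 between 1.75 and 2.12. These are sizes only, and the part of that percentile in the F3 result was not tested.

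Tfpi encodes tissue factor pathway inhibitor, a protein with Kunitz domains that blocks factor Xa and the complex of tissue factor with factor VIIa. Its values were 5.93, 5.90 and 6.05 in control, 5.79, 5.81 and 5.99 in T10, 6.01, 6.04 and 6.16 in T50, and 6.45, 6.27 and 6.41 in T100. The 3 T100 arrays lay above the other 9, and the remaining groups followed in the order T10 (5.86 ± 0.11), control (5.96 ± 0.08) and T50 (6.07 ± 0.08). Tfpi rose at T100 over control by 0.42 ± 0.07 log2 units (1.34-fold; adjusted p = 0.0229) and over T10 by 0.51 ± 0.07 (1.43-fold; adjusted p = 0.00787). T100 minus T50 was 0.31 ± 0.07 (adjusted p = 0.0884). T10 (-0.09 ± 0.07, adjusted p = 0.643) and T50 (0.11 ± 0.07, adjusted p = 0.652) did not pass against control.

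Tfpi sat close to background. Its mean exceeded the negative-control level by as little as 0.10 (T10) and at most by 0.73 (T100), with 0.53 for control and 0.55 for T50, so the size of its change is uncertain. That level was itself higher in T100 than in control. The call against control ended without control replicate 1 (adjusted p = 0.0826), control replicate 2 (0.0961), T100 replicate 1 (0.0799) or T100 replicate 3 (0.0745), with each array's 95th percentile as a covariate (0.0808), and in the fit of only the 6 arrays compared (0.0757). The T100-T10 call ended with the covariate (0.456) and with only the 6 arrays (0.0844).

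Tfpi2 encodes a related Kunitz-type inhibitor of plasmin and other matrix proteases. It ranged from 3.59 to 3.85 over the 12 arrays, far below the negative-control level. Thbd encodes thrombomodulin, the endothelial thrombin receptor of the protein C pathway, and ranged from 3.49 to 3.74. These arrays therefore give no level for either transcript, and limma called neither in any pair of groups (adjusted p between 0.662 and 1).

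Of the 2 activators, Plat was measured and Plau was not above background. Plat encodes tissue-type plasminogen activator, best known for clot lysis. Its values were 9.93, 10.03 and 10.56 in control, 9.97, 10.47 and 10.68 in T10, 9.60, 9.66 and 9.52 in T50, and 9.93, 9.80 and 10.04 in T100. All 3 T50 arrays lay below the other 9, whereas control, T10 and T100 overlapped. T50 minus control was -0.58 ± 0.19 log2 units (1.49-fold lower; adjusted p = 0.261) and T50 minus T10 was -0.78 ± 0.19 (1.72-fold lower; 95% interval -1.21 to -0.35; adjusted p = 0.0816), so neither passed. The T50-T10 difference of Plat passed after quantile normalization (-0.89, adjusted p = 0.0354), among genes above background only (0.0369), and without control replicate 3 (0.0489) or T10 replicate 1 (0.0358). The other differences of Plat from control were 0.20 ± 0.19 in T10 and -0.25 ± 0.19 in T100 (adjusted p = 0.715 and 0.687). Plau, the urokinase gene, ranged from 3.53 to 3.77.

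Plaur encodes the urokinase receptor, a lipid-anchored protein of the cell surface. Its values were 8.40, 8.15 and 8.34 in control, 8.12, 8.04 and 8.01 in T10, 8.38, 8.65 and 8.40 in T50, and 8.21, 8.12 and 8.43 in T100. The T10 arrays lay just below those of control, and T50 and control overlapped. T50 minus T10 was 0.42 ± 0.10 (1.34-fold; 95% interval 0.20 to 0.64; adjusted p = 0.0689). It passed among genes above background only (0.0301) and without T100 replicate 3 (0.0469). Against control, T10 was at -0.24 ± 0.10 (adjusted p = 0.361), T50 at 0.18 ± 0.10 (0.570) and T100 at -0.04 ± 0.10 (0.934). Plaur was above background in all 4 groups, and Plau, which encodes its ligand, in none.

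Serpinb2 encodes plasminogen activator inhibitor 2, a serpin that blocks urokinase and is kept partly inside the cell; it is best known from monocytes, keratinocytes and placenta. Its values were 9.42, 9.16 and 8.73 in control and 7.74, 6.65 and 7.49 in T10. They were 10.23, 9.42 and 9.12 in T50 and 8.81, 8.65 and 8.67 in T100. The 3 T10 arrays lay below the other 9, with T10 replicate 2 lowest, and control overlapped with T50 and T100. The means were 7.29 ± 0.57 in T10, 8.71 ± 0.09 in T100, 9.10 ± 0.35 in control and 9.59 ± 0.58 in T50, in rising order, which is not the order of dose.

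Serpinb2 fell by 1.81 ± 0.33 log2 units from control to T10 (3.51-fold lower; adjusted p = 0.0395). It was 2.30 ± 0.33 higher in T50 than in T10 (4.93-fold; adjusted p = 0.00903). T100 minus T10 was 1.42 ± 0.33 (2.68-fold; 95% interval 0.68 to 2.16; adjusted p = 0.0520). Against control, T50 (0.49 ± 0.33, 95% interval -0.25 to 1.23, adjusted p = 0.681) and T100 (-0.39 ± 0.33, -1.13 to 0.35, adjusted p = 0.727) did not pass, nor did T100 against T50 (-0.88 ± 0.33, adjusted p = 0.339). The range of its 4 group means, 2.30, exceeded that of 99.6% of the genes above background.

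The T10 call of Serpinb2 was fragile, and its T50-T10 difference less so. Against control the call ended without any 1 of 10 of the 12 arrays, at adjusted p up to 0.142 (without control replicate 1), while the difference was between -2.04 and -1.49 over all alternatives. The exceptions were T50 replicates 1 and 3. It also ended after quantile normalization (-1.65, adjusted p = 0.0559), with the covariate (adjusted p = 0.399) and in the fit of only the 6 arrays (0.146). The T50-T10 difference passed without each of the 12 arrays (adjusted p up to 0.0324), but not with the covariate (0.161) or with only the 6 arrays (0.122). T10 had the lowest 95th percentile (9.42) and the highest negative-control level (5.77) beside this fall. Tek, the only endothelial marker above background, was also called lower in T10 than in control (mean 5.86, against 6.50 in control, 6.79 in T50 and 6.07 in T100). The 10 endothelial markers summed to 39.1 to 39.4 in T10, 39.8 to 40.0 in control, 39.7 to 40.2 in T50 and 39.2 to 39.5 in T100. Acta2, the smooth muscle actin gene among the stellate markers, was called lower in T10 than in control and higher in T50 than in T10. Its mean was 8.84 in T10, against 10.28 in T50, 11.05 in control and 13.09 in T100. Among the stellate markers above background, only Acta2 was called in these pairs. Means in control, T10 and T50 were 7.19, 7.61 and 6.63 for Col1a1, and 10.22, 10.67 and 10.61 for Col1a2. For Col3a1 they were 9.75, 9.56 and 9.78. Cd3e, a T cell marker below background in every group, was called lower than control in both T10 and T50. Their part in the Serpinb2 result was not tested. Cd14, the only monocyte marker above background, had means between 5.91 and 5.99.

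Serpine2 encodes protease nexin 1, an inhibitor of thrombin and of both plasminogen activators. It ranged from 3.66 to 3.81 and was below background on all 12 arrays. Across the Serpinb and Serpine genes, a group looked at after the values were seen, 4 of 21 measured genes were above background in at least 1 group: Serpinb2, Serpinb6a, Serpinb8 and Serpinb9.

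**Figure D2:**
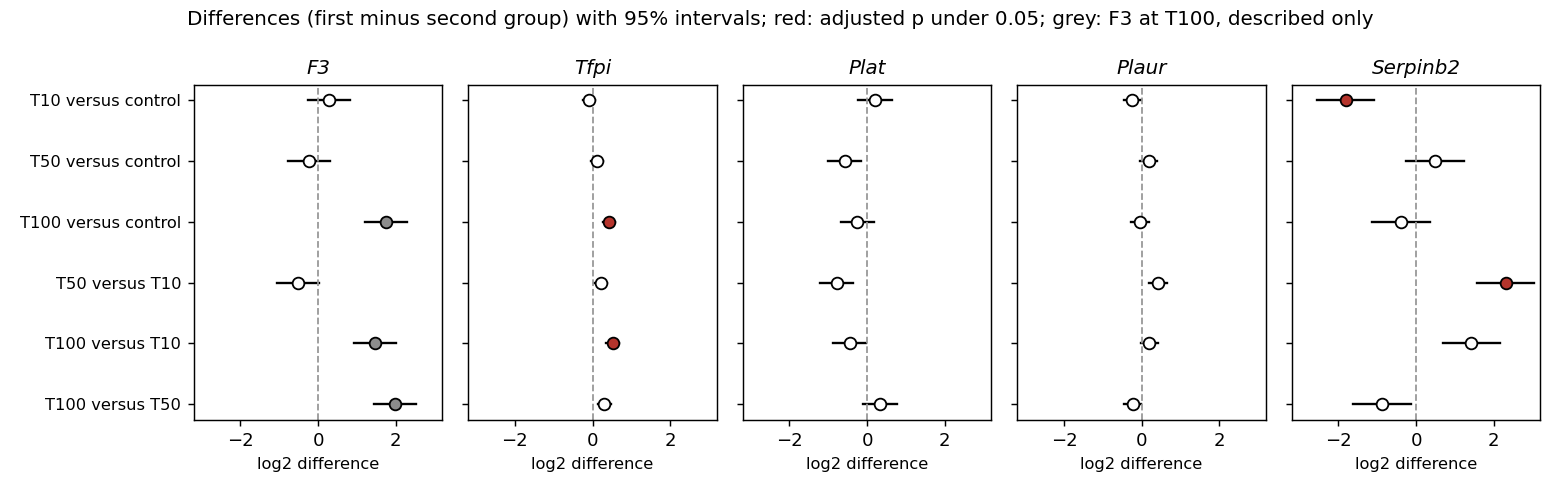
Log2 differences (first group minus second) of the 5 genes above background in the 6 pairs of groups, with 95% intervals from limma. Red points passed at an adjusted p under 0.05: Tfpi in T100 against control and T10, and Serpinb2 in T10 against control (-1.81) and T50 against T10 (2.30). Grey points are F3 at T100, given as a description, and their intervals are no test because F3 was picked on these values.

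In limma's test with Benjamini-Hochberg adjustment over 22093 genes, 0 of the 9 genes were called higher and 1 (Serpinb2) lower in T10 against control, where 0.154% and 0.715% of all genes were. In T50 against control 0 were called in either direction and 1 (Plat) had an unadjusted p under 0.05, beside 0.742% of all genes called higher and 0.566% lower. In T100 against control, of the 8 genes other than F3, 1 (Tfpi) was called higher and 0 lower, beside 0.941% and 0.521% of all genes. The names were picked with such results known, so nothing is read from these counts. After quantile normalization the higher and lower calls over all genes were 120 and 121 in T10 (34 and 158 on the deposited values), 297 and 160 in T50 (164 and 125) and 261 and 260 in T100 (208 and 115).

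Between exposures, 1 gene (Serpinb2) was called higher in T50 than in T10 and 0 lower, against 1.74% and 0.267% of all genes. Leaving out F3, 1 of 8 (Tfpi) was called higher in T100 than in T10 and 0 lower, against 2.73% and 0.349%. In T100 against T50, 0 of the same 8 were called in either direction, against 0.656% and 0.502%, while 3 (Tfpi, Plaur and Serpinb2) had an unadjusted p under 0.05. After quantile normalization the higher and lower calls were 161 and 92 (384 and 59 on the deposited values) in T50 against T10, 136 and 213 (604 and 77) in T100 against T10, and 123 and 235 (145 and 111) in T100 against T50. These comparisons share arrays with those against control. A moderated F test for any difference among the 4 groups called Tfpi (adjusted p = 0.0132) and Serpinb2 (0.0162) of these 8, and 3.8% of all genes, while Plat and Plaur were each at 0.138. The test of a trend over the ordered groups (weights -3, -1, 1 and 3) called 1 of the 8, Tfpi (adjusted p = 0.0130), higher and 0 lower, against 1.65% and 0.566% of all genes. That call ended without control replicate 2 (0.0541) and with the covariate (0.128), and the means of Tfpi in the lower groups were not in order of dose.

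Transcripts for the plasma proteins of coagulation did not exceed background. Of 22 measured coagulation factors and plasma inhibitors, a list that includes prothrombin, factors VII and X, fibrinogen chains and antithrombin, 0 were above background in any group. The brightest were Fgb, F9 and F8, with 12-array means no higher than 3.81. Limma called 0 of the 22 in any pair of groups, with 0, 1 and 0 at an unadjusted p under 0.05 in T10, T50 and T100 against control. Their median difference from control was 0.01 in T10, 0.0077 in T50 and 0.0059 in T100, and that of all genes was -0.0038, 0.0045 and 0.0031.

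Of 14 measured partners of coagulation at the cell surface or in synthesis, 10 were above background. Against control, 1 rose and 1 fell at T10, 1 rose and 0 fell at T50, and 2 rose and 0 fell at T100. Of all genes, 0.154% were called higher and 0.715% lower at T10, 0.742% and 0.566% at T50, and 0.941% and 0.521% at T100. The list's median differences were 0.03, -0.0034 and 0.08, against -0.0038, 0.0045 and 0.0031 for all genes. The list was chosen with earlier results known, so nothing is read from these counts. Gpc3, a glypican that binds tissue factor pathway inhibitor at the cell surface, rose at T100. Its values were 6.90, 6.93 and 7.24 in control and 8.57, 8.32 and 8.40 in T100, with 7.34 to 7.62 in T10 and 6.81 to 7.19 in T50. T100 lay above the other 9 arrays, by 1.40 ± 0.12 over control (2.65-fold; adjusted p = 0.00141), 0.95 ± 0.12 over T10 (0.00638) and 1.44 ± 0.12 over T50 (0.000930). Its T100-T10 difference did not pass with the covariate (adjusted p = 0.381).

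Procr, the endothelial protein C receptor, was at 7.32, 7.71 and 7.48 in T100. In T50 it was at 6.84, 6.94 and 6.84, with replicates 1 and 3 identical, so the error may be understated. It was 0.63 ± 0.12 higher in T100 than in T50 (1.55-fold; adjusted p = 0.0379), a call that ended in 10 of 19 alternatives, at up to 0.124 without T50 replicate 1. Against control it was at 0.55 ± 0.12 (adjusted p = 0.0601). Vkorc1l1, an enzyme of the vitamin K cycle, fell by 0.46 ± 0.08 at T10 (adjusted p = 0.0287). It lay at 6.79 to 6.91 in control and at 6.25 to 6.55 in T10, and the call ended in 9 of 19 alternatives (0.242 with the covariate). F2r, the thrombin receptor PAR1, was at 0.07 ± 0.22, -0.30 ± 0.22 and 0.57 ± 0.22 against control in T10, T50 and T100 and did not pass (adjusted p = 0.942, 0.710 and 0.314).

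Anxa5, which binds the phosphatidylserine surface on which clotting factors assemble, was 0.17 ± 0.03 above control in T10 and T50 and 0.41 ± 0.03 in T100 (adjusted p = 0.0361, 0.0294 and 0.000512). Its value was identical, 14.76, on all 6 arrays of T10 and T50, so the error of these differences is understated. The T10 call ended in 15 of 19 alternatives and the T50 call in 10 of 19, while the T100 call held in all 19. Quantile normalization moved the T10 and T50 differences to 0.51 and 0.46 (adjusted p = 0.142 and 0.155). Repeated values also covered other genes of the plasminogen system, and the labels do not say how such values arose. Anxa2 and S100a10, which form a plasminogen receptor, and Eno1, another plasminogen-binding protein, each held 1 value on all 12 arrays (19.93, 19.89 and 13.55), as did Pdia3 (17.35), a disulfide isomerase. No change in these 4 genes could be seen in this table.

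Of 24 measured partners of plasminogen activation, 9 were above background, and neither Plg, the plasminogen gene, nor Vtn, which encodes vitronectin, was among them. Against control, 0 rose and 1 fell at T10, 0 were called at T50, and 1 rose and 2 fell at T100. At an unadjusted p under 0.05 in limma's test there were 7, 6 and 8. Of all genes, 0.154% were called higher and 0.715% lower at T10, 0.742% and 0.566% at T50, and 0.941% and 0.521% at T100. The list's medians were 0.00, -0.0012 and -0.0025, against -0.0038, 0.0045 and 0.0031 for all genes. Nothing is read from these counts either. Serpinb9, the granzyme B inhibitor, was at 6.13, 5.94 and 5.96 in control, 5.36, 5.27 and 5.08 in T10, 5.95, 6.10 and 6.21 in T50, and 5.48, 5.44 and 5.52 in T100. It fell by 0.78 ± 0.08 at T10 (adjusted p = 0.00415) and fell by 0.53 ± 0.08 at T100 (0.0170), both to below background, so the sizes are uncertain. The T10 call ended with the covariate (0.200) and with only the 6 arrays (0.0681). The T100 call ended in 5 of 19 alternatives: with the covariate (0.0554) and without control replicate 1 (0.0646), control replicate 2 (0.0531), T100 replicate 1 (0.0575) or T100 replicate 2 (0.0546). Serpinb9 was 0.85 ± 0.08 higher in T50 than in T10 (adjusted p = 0.00114). That call ended with the covariate (0.06485) and with only the 6 arrays compared (0.0564). T100 minus T50 was -0.61 ± 0.08 (0.00970), a call that ended with only the 6 arrays compared (0.0656). These sizes are uncertain too, as T10 and T100 were below background.

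Serpinb8, an inhibitor of furin-like proteases, rose at T100. It was at 9.07, 8.84 and 9.17 in control, 9.38 to 9.43 in T10, 9.44 to 9.98 in T50, and 9.93, 9.80 and 10.72 in T100. The rise over control was 1.13 ± 0.22 (2.18-fold; adjusted p = 0.0409), and it did not pass in 12 of 19 alternatives, at up to 0.148 without control replicate 2 and 0.166 with only the 6 arrays. Mmp3, the stromelysin gene, was called lower at T100 (-0.53 ± 0.10, adjusted p = 0.0394) but was below background in every group, and the call ended in 12 of 18 alternatives (up to 0.168). Spint2, an inhibitor of hepatocyte growth factor activator, was called lower only in the ordered trend (adjusted p = 0.0439), a call that ended in 10 of 17 alternatives (up to 0.125), and was also below background. Lrp1, the endocytic receptor that clears complexes of activators with serpins, was at -0.41 ± 0.28, -0.65 ± 0.28 and -0.84 ± 0.28 in T10, T50 and T100 and did not pass (lowest adjusted p = 0.218, in T100).

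**Figure D3:**
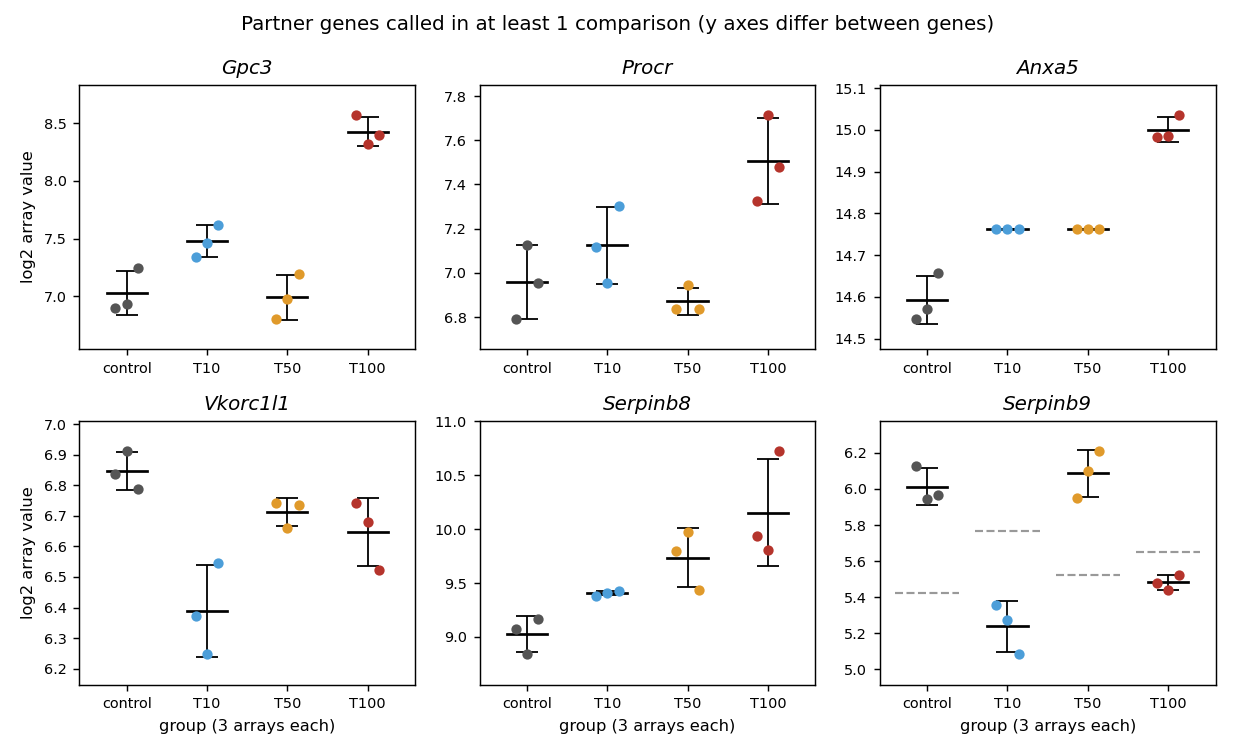
Log2 array values of 6 partner genes called in at least 1 pair of groups (points, 3 arrays a group; mean and SD in black; dashed line, negative-control level where it falls in the panel; the y axes differ). Gpc3 in T100 lay at 8.32 to 8.57, above the other 9 arrays, Anxa5 had 1 value (14.76) on the 6 T10 and T50 arrays, and Serpinb9 was below the dashed line in T10 and T100.

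Among the 5 genes above background, pairs moved alike to different degrees over the 12 arrays, as a description only. Pearson's r was 0.759 for F3 and Tfpi, 0.715 for Plaur and Serpinb2, -0.707 for Plat and Serpinb2 and -0.572 for Plat and Plaur. F3 with Serpinb2 gave -0.262 and F3 with Plat 0.0912. The points are the same 12 arrays in 4 groups, so values of 1 group move together in each r.

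The genes most like F3 over the 12 arrays, of 4376 compared, were Gpc3 (r = 0.961), Igfbp2 (0.956), a binding protein of insulin-like growth factors, Spats2l (0.937), Col1a1 (0.936), a chain of type I collagen, and Eif4e2 (0.928). Each had its highest mean in T100: Gpc3 went from 7.02 in control to 8.43, Igfbp2 from 6.23 to 6.91 and Col1a1 from 7.19 to 9.55. The most opposite were Ceacam1 (-0.908), a cell adhesion molecule, Scmh1 (-0.894) and Akr1b8 (-0.894), an aldo-keto reductase, each lowest in T100. Spearman's rank correlation with F3 was weaker for these, at -0.722, -0.552 and -0.732. It was 0.937 for Gpc3, 0.874 for Igfbp2, 0.804 for Spats2l, 0.937 for Col1a1 and 0.706 for Eif4e2. The genes most like Serpinb2 were Ripk2 (0.916), a kinase downstream of NOD receptors, Ccdc152 (0.915), Pkn2 (0.911), Nol10 (0.908) and the mitotic checkpoint kinase gene Bub1 (0.904), each lowest in T10 and highest in T50. Most opposite was Vsnl1 (-0.964), a neuronal calcium sensor, with its highest mean in T10 (9.60), then T100 (8.38), control (7.95) and T50 (6.94). Tbx18 (-0.936), a T-box transcription factor, and Chp1 (-0.911) followed. Some of these genes had means below background: Spats2l and Eif4e2 in T10, Scmh1 in T100, and Ccdc152 in both.

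**Figure D4:**
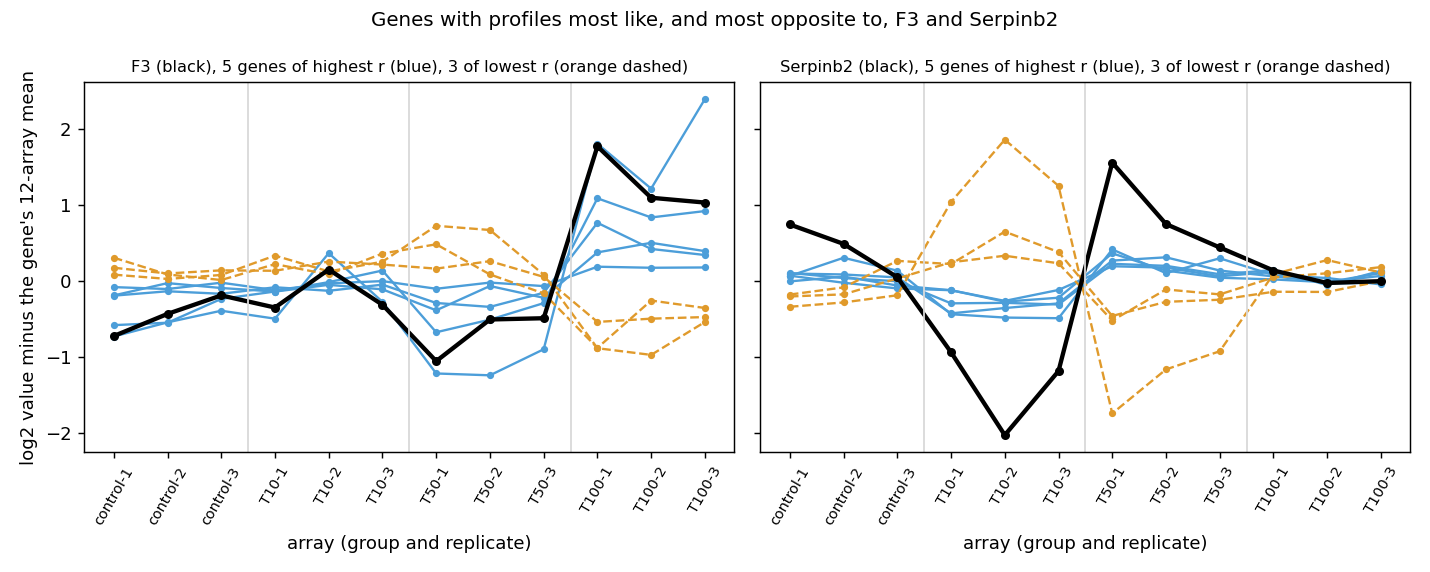
Log2 values minus each gene's 12-array mean, by array, for F3 and Serpinb2 (black), the 5 genes with the highest Pearson r (blue) and the 3 with the lowest (orange, dashed). The blue lines of F3 rise at T100 and those of Serpinb2 dip at T10, by smaller amounts than Serpinb2 itself (for Ripk2, 6.92 in control to 6.48 in T10).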

How the data were processed

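RNA of 12 TRL1215 samples was measured on Affymetrix arrays from 100 ng of total RNA with the WT Plus kit, per the labels' protocols. The deposited table holds log2 values; the base was inferred from their range (2.87 to 19.93), and the authors' background correction, summarization and normalization are not stated in the labels. Symbols came from the platform's annotation: 23446 of 70580 probe sets had 1 symbol, giving 22093 genes, the brightest row each. In limma 3.58.1 (R 4.3.3), 1 linear model of 4 group means was fitted to the 12 arrays and moderated by eBayes (prior degrees of freedom 1.71), two-sided, with Benjamini-Hochberg adjustment over all genes; calls needed an adjusted p under 0.05. The SE of a difference is the model's, from 3 arrays a group, and so few arrays limit the precision. The steps were tested on simulated data with known differences. Members, lists and named genes were chosen with earlier results of these data known. All 9 members were named, then the called genes of each list, or else its 3 brightest, and for F3 and Serpinb2 the 5 genes of highest and 3 of lowest Pearson r among genes above background without a provisional symbol. F2r, Lrp1, Plg and Vtn were named outside that rule, after their values were seen. Also outside it were Anxa2, S100a10, Eno1 and Pdia3, which were among the 3 brightest of lists that had called genes. Some genes of these pathways were not analysed here. The alternatives were quantile normalization, only genes above background, the mean of a gene's probe sets, eBayes with trend and robust settings, only the arrays compared, a replicate block, each array's 95th percentile added as a covariate, and leaving out each array. The main fit did not treat equal replicate numbers as pairs. In their deviations, same-numbered arrays of different groups correlated between -0.219 and 0.112, and other-numbered arrays between -0.234 and 0.261. Such correlations cannot decide whether samples were handled in pairs.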

Additional observations from a re-analysis of the deposited data

How the results depend on the processing

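The pairwise calls held in 30 of 38 alternative values for Tfpi and 23 of 38 for Serpinb2, and 0 reversed; the cause of the losses was not tested. Member counts below that involve T100 include F3, whose values there are a description, so they say nothing of stability. Quantile normalization gave 0 members called in T10 against control and 2 in T50 against T10, 1 partner of coagulation in T10 and 1 of plasminogen activation in T50. Testing only genes above background, which adjusts over fewer genes, gave 3 members in T50 against T10 and 2 in T100 against T50. Trend and robust settings gave 1 coagulation partner in T10 and 0 in T50. The replicate block gave 0 coagulation partners in T10, 1 plasminogen partner in T50 and 2 members in T100 against T50; it ended no pairwise call of a member, and added T100 against T10 for Serpinb2 (adjusted p = 0.0357) and T100 against T50 for Tfpi (0.0339). It ended the calls of Serpinb8 (0.0774), Mmp3 (0.0521), Procr (0.0566) and, at T10, Vkorc1l1 (0.0765) and Anxa5 (0.0547). The 95th percentile as a covariate gave 0 members in T10 and 1 in T100 against control, 0 in T50 and 0 in T100 against T10, 0 in the trend and 1 in the F test, with 0 coagulation partners in T10 and, of the plasminogen partners, 0 in T10, 1 in T50 and 0 in T100. With only the arrays compared, which leaves fewer samples, 0 members were called in T10 and T100 against control and in all 3 pairs of exposures, with 0 coagulation partners in T10 and T50 and 0 and 1 plasminogen partners in T10 and T100. The mean of probe sets moved no count. Without single arrays, the members called ranged from 0 to 1 in T10, 1 to 2 in T100, 1 to 2 in T50 against T10, 1 to 3 in T100 against T10 and 0 to 2 in the trend. The coagulation partners ranged from 0 to 2 in T10 and 0 to 1 in T50, and the plasminogen partners from 1 to 2 in T10, 0 to 1 in T50 and 0 to 2 in T100. Signal over background limits Tfpi, and the 4 genes below background cannot be judged.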
